A study of Mus musculus with 4 samples.

Results

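Neutrophils were taken from both single-cell RNA sequencing (scRNA-seq) libraries of the tenotomy site without any minimum on ribosomal UMIs. A UMI is a molecular tag that counts 1 captured RNA molecule. A barcode was kept when it had at least 200 genes and at most 20% mitochondrial UMIs, which left 2293 of 3569 barcodes. A kept barcode was called a neutrophil when S100a8 and S100a9 made up at least 1% of its UMIs, when Csf3r, Cxcr2, Il1r2 and Retnlg together had at least 2 UMIs, and when Krt14, Krt10, Krt1 and Krt5 stayed under 0.5% of UMIs. Of the 2293 kept barcodes, 59 met this rule. The pooled library held 40 of them, or 2.83% of its 1415 kept barcodes (95% Wilson interval 2.08 to 3.83%). The replicate 3 library held 19, or 2.16% of 878 (1.39 to 3.36%). The libraries shared 1 kept barcode sequence, and no neutrophil was among the shared barcodes.

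Both libraries came from mice labelled Hoxa11CreER;ROSA-LSL-TdTomato;Hif1a fl/fl. The mice had burn and tenotomy (BT), a model of injury-induced heterotopic ossification (HO), and the cells were unsorted digests of the tenotomy site at day 7. Tamoxifen at 75 mg/kg had been given daily for 5 days, followed by a 9-day washout. It activates Cre in limb cells that express Hoxa11, so neutrophils are not the cells in which this line is designed to delete Hif1a. The pooled library combined replicates 1 and 2 and the other library held replicate 3. The study's methods describe both Cre-positive and Cre-negative mice for its own scRNA-seq data, but both libraries carry the same label, which does not mark Cre as present or absent. No comparison of genotypes was therefore made. A 3' tag lies outside the floxed part of a gene and does not check its deletion. The Visium sections A1 and B1 came from 10-week-old wild-type C57BL/6 mice 7 days after BT, and the labels do not say whether the sections came from separate mice.

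Neutrophils are short-lived granulocytes that leave the bone marrow nearly mature and are among the earliest leukocytes to enter injured tissue. They store antimicrobial proteins in granules, which are filled in a fixed order while the cell matures. The mRNAs for primary and then secondary granule proteins are largely gone by the time the cell circulates. Mature neutrophils make less new protein than most leukocytes and carry few ribosomes and mitochondria, so filters built on ribosomal content can remove them. S100a8 and S100a9 encode the 2 chains of calprotectin, a calcium- and zinc-binding protein that fills their cytosol. Csf3r is the receptor for the growth factor G-CSF, Cxcr2 binds the neutrophil-attracting CXC chemokines, Il1r2 is a decoy receptor for interleukin-1, and Retnlg is a resistin-like secreted protein.

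The promoters of the calprotectin genes are shown because these genes carry the largest part of the rule. Each is the 250 bases before the transcript start in RefSeq (GRCm38.p6, the mm10 assembly), read 5′ to 3′ on the gene's own strand. S100a8 lies on the plus strand at chr3:90668821-90669070 and S100a9 on the minus strand at chr3:90695722-90695971. Capitals mark matches to a C/EBP motif (TTNNGNAA) or to a PU.1 motif (GAGGAA), searched on both strands.
S100a8: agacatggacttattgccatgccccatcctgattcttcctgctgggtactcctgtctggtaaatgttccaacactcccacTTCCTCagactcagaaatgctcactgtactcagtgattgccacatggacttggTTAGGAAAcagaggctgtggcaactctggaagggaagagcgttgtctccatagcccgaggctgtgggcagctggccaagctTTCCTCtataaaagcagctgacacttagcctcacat
S100a9: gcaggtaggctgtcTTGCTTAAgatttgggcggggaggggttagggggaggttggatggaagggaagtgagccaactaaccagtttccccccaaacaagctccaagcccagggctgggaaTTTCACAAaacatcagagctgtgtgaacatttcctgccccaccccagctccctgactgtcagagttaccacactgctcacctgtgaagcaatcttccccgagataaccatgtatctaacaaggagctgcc
The S100a8 window held 1 C/EBP match, TTAGGAAA at 117 bases before the start, and 2 matches to PU.1 on the other strand, TTCCTC at 170 and 36 bases. The S100a9 window held 2 C/EBP matches, TTGCTTAA at 236 and TTTCACAA at 130 bases before the start, and no PU.1 match. Neither window held the core of a HIF motif, ACGTG, on either strand. Of the other genes of the rule, Il1r2 held 6 matches to it on both strands together, some overlapping, and Csf3r, Cxcr2 and Retnlg held 0. Of 32851 promoter windows of this length, 36.8% held the C/EBP letters, 23.3% the PU.1 letters and 16.6% the HIF letters. A match describes letters in this window and is not a binding site. C/EBP and PU.1 are the factor families best known for granulocyte genes. Cebpb, a C/EBP factor used by mature and activated myeloid cells, was detected in all 59 neutrophils, at 4959 CPM in the pooled library and 5438 CPM in replicate 3. CPM is the usual scale of counts per 1000000 UMIs, here of the UMIs summed over a class of cells in a library. Macrophages had 1968 and 1745 CPM, so both neutrophil values lay above both macrophage values. The edgeR log2 fold change was 1.29 (SE 0.39, adjusted p = 0.00584). Here and below, SE is the absolute log2 fold change over the square root of the test's F statistic. For genes with few UMIs in a class it can be smaller than the counting error. Spi1, which encodes PU.1, was at 530 and 761 CPM in neutrophils and at 396 and 376 CPM in macrophages, and its difference did not pass (edgeR adjusted p = 0.153).

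The genes of the rule are described here without a test, since the cells were chosen by their UMIs. S100a8 stood at 41502 CPM in the pooled library (40549 to 42471, exact 95% Poisson limits) and at 40962 CPM in replicate 3 (39584 to 42376). S100a9 stood at 53529 and 47174 CPM. In macrophages S100a8 was at 10.8 and 12.0 CPM and S100a9 at 6.10 and 11.5 CPM. Per cell, S100a8 and S100a9 together took from 1.20 to 28.7% of UMIs in the pooled library with a median of 7.14%, and from 1.27 to 16.7% in replicate 3 with a median of 10.6%. The highest share outside the limit, in barcodes that met every other condition, was 0.587% in the pooled library and 0.181% in replicate 3. The limit thus fell in a gap in both libraries. The 19 cells of replicate 3 left a wide space between 5.56 and 9.65%, with 8 cells below it and 11 above, while the widest space in the pooled library lay between 18.1 and 21.8%.

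Among the receptors of the rule, Csf3r was at 933 CPM (795 to 1088) in the pooled library and 1461 CPM (1210 to 1748) in replicate 3. Cxcr2 was at 904 and 957 CPM and had no UMI in either macrophage class. Il1r2 was at 2264 and 2639 CPM. Retnlg stood at 4193 CPM in the pooled library and 258 CPM in replicate 3. It was found in 21 of 40 and 6 of 19 neutrophils, and a single pooled cell gave 269 of the 728 UMIs. Receptor UMIs per cell ran from 2 to 311 with a median of 17.5 in the pooled library and from 6 to 43 with a median of 22 in replicate 3. In the pooled library 1 barcode missed the rule for having 1 receptor UMI alone, and in replicate 3 there were 2.

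The number of cells with a UMI depends on depth, and neutrophils were shallow. Their median was 3819.5 UMIs and 1185.5 genes in the pooled library and 4210 UMIs and 1232 genes in replicate 3. Macrophages had 12137.5 and 14048 UMIs and 3090 and 3367 genes. Each cell was therefore thinned to 500 UMIs at random. Cxcr2 was then found in 37.5% of pooled neutrophils (24.2 to 53.0%) and 47.4% of replicate 3 neutrophils (27.3 to 68.3%), against 85.0 and 94.7% before thinning. Mesenchymal cells, which should lack Cxcr2, had it in 0 of 385 and 1 of 300 thinned cells (0.333%, 0.0589 to 1.86%). Il1b, the inflammatory cytokine interleukin-1β, was found in 85.0% (70.9 to 92.9%) and 94.7% (75.4 to 99.1%) of thinned neutrophils, in 31.7 and 19.5% of thinned macrophages and in no thinned mesenchymal cell, which allows up to 0.988 and 1.26%. These intervals cover counting error only.

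Most neutrophils lay under 5% ribosomal UMIs, the minimum that the study set for its cells. Ribosomal protein genes took a median of 3.65% of a neutrophil's UMIs in the pooled library, with a range from 1.39 to 16.6%. In replicate 3 the median was 3.11% and the range 1.40 to 6.43%. Macrophages had medians of 12.2 and 10.9%, T cells 19.9 and 18.2%, and mesenchymal cells 13.6% in both libraries. The limit would have removed 30 of 40 pooled neutrophils (75.0%, 59.8 to 85.8%) and 16 of 19 of replicate 3 (84.2%, 62.4 to 94.5%), 46 of 59 in all (78.0%, 65.9 to 86.6%). It would have removed 3.91 and 6.02% of macrophages, 0.877 and 0% of T cells, and 2.86 and 5.33% of mesenchymal cells. With so few T cells in replicate 3, its 0 of 41 allows up to 8.57%. Neutrophils were 46 of the 176 kept barcodes under the limit, or 26.1% (20.2 to 33.1%).

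**Figure D1:**
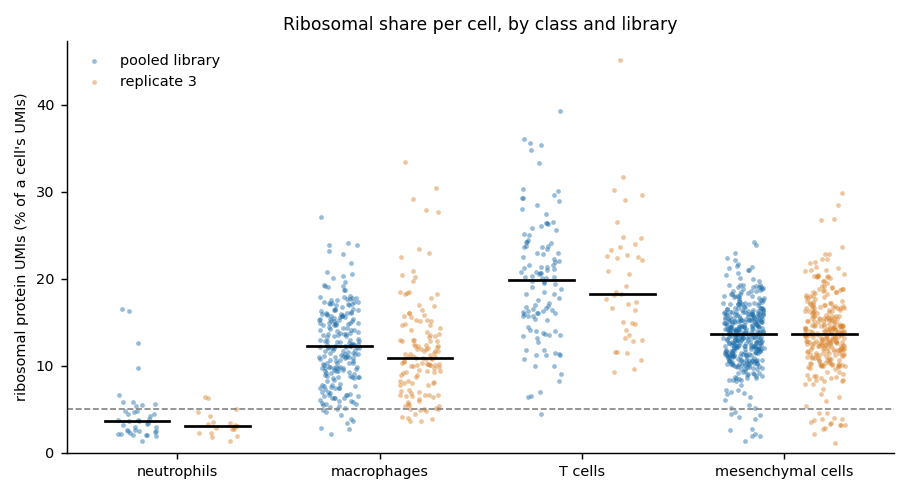
Each point is 1 cell and shows the share of its UMIs from ribosomal protein genes in percent, by class and library, with the study's 5% minimum as a dashed line and medians as bars. Of the 59 neutrophils, 46 lie under the line, and the medians of the other classes lie between 10.9 and 19.9%.

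Without S100a8 and S100a9 in the total, the neutrophil medians were 3.84 and 3.40%, and 29 and 15 cells stayed under 5%. With Gm42418, an abundant transcript that overlaps ribosomal RNA, also left out of the total, 25 and 14 did. In UMIs, a neutrophil carried a median of 124 ribosomal UMIs in the pooled library and of 117 in replicate 3. A macrophage carried 1474.5 and 1497. Of the 59 neutrophils, 14 lay between 4 and 6%, so the 5% line cuts through a continuous range. The mitochondrial share was low as well, at medians of 0.611 and 0.672% against 3.60 and 4.13% in macrophages.

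Other markers of neutrophils, outside the rule, were next compared with the macrophages of the same libraries, the other phagocytes of the digest. UMIs were summed per library and class, and neutrophils, macrophages, T cells and mesenchymal cells were fitted together by edgeR's quasi-likelihood test with the library as a block. Of 10705 genes tested, 7.08% were higher and 17.1% lower in neutrophils at an adjusted p under 0.05. The list counts against macrophages below are to be read beside these shares. The classes come from the same 2 libraries. With the library as a block, p-values measure only how class differences vary between these libraries, over all 4 classes. The median log2 fold change over all genes was -1.01, and 2764 of the genes had no UMI in any neutrophil. Those genes were then set at the bound that 3 UMIs over both libraries allow, and left out where the macrophage level did not exceed it. Genes with no macrophage UMI were bounded or left out likewise, and the median was -0.54. List medians with genes at 0 set at their bound were taken in the same way, so they can cover fewer genes. With DESeq2's size factors the median without bounds was -0.72. The balance changed from 758 higher and 1830 lower to 945 higher and 1273 lower. A small negative fold change therefore says little by itself. Up to 4 genes of each list were named by size of change, and other list members with values were chosen after those values were seen.

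Of 24 neutrophil markers outside the rule, 22 had enough counts to be tested, and 21 were higher in neutrophils and none lower. Their median log2 fold change was 5.27. Hdc, which makes histamine, was at 1624 and 2799 CPM in neutrophils and at 2.15 and 3.99 CPM in macrophages. Trem1, an activating receptor of myeloid cells, was at 870 and 859 CPM against 26.9 and 20.5 CPM. Stfa2l1, a stefin-type protease inhibitor, was at 1786 and 872 CPM against 0 and 0.499 CPM in macrophages. Its log2 fold change was 12.46 (SE 0.49, edgeR adjusted p = 4.10e-136), on a macrophage count near 0. Il1f9, which encodes interleukin-36γ, had 294 and 393 CPM and no macrophage UMI, so it was at least 520-fold higher. Stfa2 was at least 232-fold higher and Mrgpra2b, a Mas-related receptor, at least 106-fold higher. They rested on 37 UMIs in 11 cells and on 17 UMIs in 9 cells. These bounds leave out the counting error of the neutrophil UMIs. Il1f9, Stfa2 and Mrgpra2b lost the call with DESeq2. With DESeq2, 16 of the 22 markers passed.

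Ly6g, the surface marker most used to stain mouse neutrophils, was sparse. It was found in 7 of 40 pooled neutrophils at 74.9 CPM and in 0 of 19 of replicate 3, where 3 UMIs would have been 36.8 CPM. No macrophage, T cell or mesenchymal cell had a Ly6g UMI. It had too few counts to be tested.

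Markers of other cells were near 0 in most neutrophils. Summed over the class, 12 macrophage markers took 0.0380 and 0.0466% of neutrophil UMIs against 3.73 and 3.81% in macrophages, and C1qc had no UMI. Of the 59 cells, 1 carried 5 or more macrophage UMIs and 2, both of the pooled library, carried 2 or more Cd3 UMIs. All 3 lay at or above 5% ribosomal UMIs. Scrublet marked no neutrophil as a doublet. T-cell markers had no UMI in replicate 3, and the 4 of them that were higher than in macrophages numbered 0 once members with UMIs of other classes were left out. Markers of eosinophils, basophils and mast cells were at most at 0.00368% of UMIs. Markers of monocytes and dendritic cells, 10 in all, took 0.0340 and 0.00859% of neutrophil UMIs against 0.119 and 0.0990% in macrophages. They had a UMI in 27 of the 59 cells, with at most 14 in a cell. Of them, Ccr2 and F13a1, markers of monocytes, were in 2 and 0 cells, so most of the 27 cells held UMIs of other genes of the list.

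Granule genes are ordered here from the earliest granules to the latest. The primary granule genes Mpo, Elane, Prtn3 and Ctsg, which encode the enzymes of the earliest granules, had no UMI in any neutrophil. Of 6 tested secondary granule genes, 4 were higher than in macrophages and 1 was lower, with a median log2 fold change of 4.14. Lcn2, which encodes the iron-withholding protein lipocalin-2, was at 726 and 135 CPM against 1.43 and 0 CPM. It was held by 17 of 40 and 5 of 19 cells. A single pooled cell gave 56 of the 126 pooled UMIs, and without that cell the level was 426 CPM. Mmp8, the neutrophil collagenase, was at 156 and 123 CPM against 7.89 and 2.50 CPM, and its log2 fold change was 4.57 (SE 0.58, edgeR adjusted p = 1.86e-13). The same cell gave 11 of the 27 pooled Mmp8 UMIs, and without that cell the pooled level was 97.4 CPM. Hp, haptoglobin, was at 1227 and 1092 CPM. Ngp was at least 157-fold higher, but 24 of its 25 UMIs came from the same single pooled cell. Chil3, a chitinase-like protein, was lower, with a log2 fold change of -1.63 (SE 0.51, edgeR adjusted p = 0.00867). Ltf, which encodes lactoferrin, and Camp, which encodes cathelicidin, had 1 UMI each.

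Among tertiary granule genes, Mmp9, the gelatinase of these granules, was in 35 of 40 and all 19 neutrophils, at 979 and 1117 CPM against 211 and 32.4 CPM in macrophages. Its log2 fold change was 3.16 (SE 0.25, edgeR adjusted p = 5.05e-34). Adam8, a surface protease, was at 346 and 601 CPM against 100 and 131 CPM. Mmp25, a membrane-anchored metalloproteinase, was higher as well (2.01, SE 0.71, edgeR adjusted p = 0.0225), on 46.1 and 36.8 CPM. Of 5 tested genes these 3 passed and none was lower, and the median was 1.79, or 1.90 with a gene at 0 set at its bound.

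**Figure D2:**
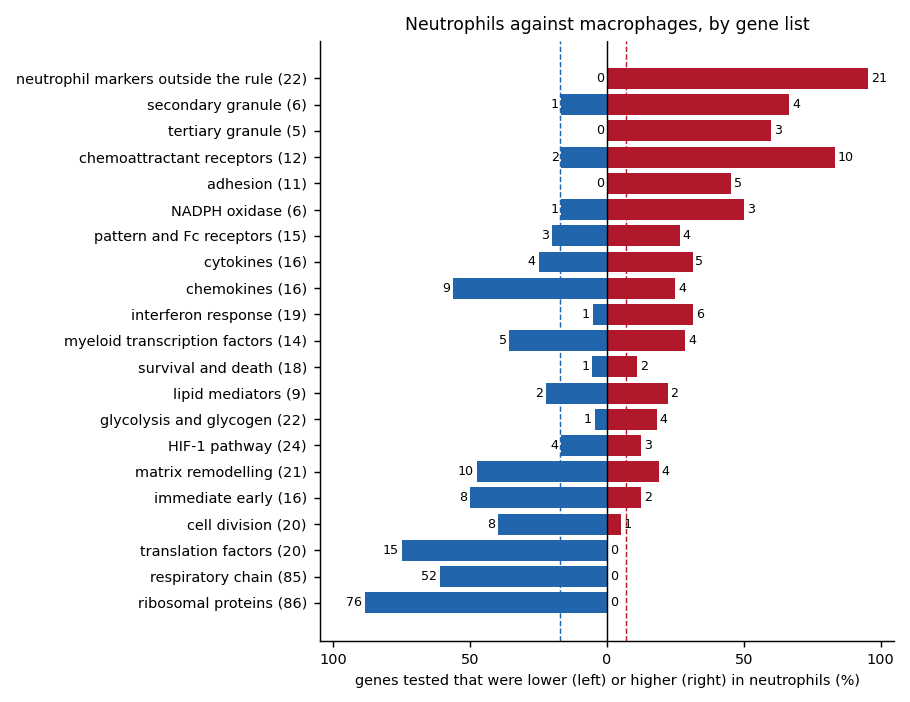
Bars give the percent of tested genes of each list that were higher (right) or lower (left) in neutrophils than in macrophages by edgeR at adjusted p under 0.05, with the number of genes at the bar's end and the number tested in brackets. Dashed lines mark the shares over all genes, 7.08% higher and 17.1% lower. Neutrophil markers and chemoattractant receptors reach farthest to the right, and ribosomal proteins and translation factors farthest to the left.

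The NADPH oxidase makes the superoxide of the respiratory burst from a membrane part, encoded by Cybb and Cyba, and cytosolic parts. Of its 6 genes, 3 were higher in neutrophils and 1 was lower, with a median log2 fold change of 0.97. Ncf1, a cytosolic organizer, was at 202 and 577 CPM against 134 and 99.3 CPM in macrophages. Rac2, the small GTPase of the complex, was at 789 and 638 CPM against 139.5 and 124 CPM, a log2 fold change of 2.25 (SE 0.29, edgeR adjusted p = 1.01e-12).

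Cybb, the catalytic subunit, went the other way. It had 32 UMIs in all neutrophils, and 31 of them came from a single pooled cell, the same cell that carried 13 macrophage UMIs and 12.6% ribosomal UMIs. It had no UMI in 57 neutrophils, among them all 19 of replicate 3, where a count of 0 allows up to 36.8 CPM. Macrophages had 630 and 427 CPM. The log2 fold change was -2.56 (SE 0.35, edgeR adjusted p = 7.12e-12). The call was lost with DESeq2 (adjusted p = 0.14) and when classes were limited to cells at or above 5% ribosomal UMIs (edgeR adjusted p = 0.0938). Ncf1 also lost the call in those settings.

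Chemoattractant receptors, which steer neutrophils to injury, were mostly higher than in macrophages. Of 12 genes, 10 were higher in neutrophils, beside 7.08% of all genes, and 2 were lower. The median log2 fold change was 2.05. Hcar2, a receptor for hydroxycarboxylic acids, was at 588 and 945 CPM against 7.89 and 6.49 CPM, a log2 fold change of 6.46 (SE 0.31, edgeR adjusted p = 9.45e-93). The formyl peptide receptors Fpr1 and Fpr2, which sense bacterial and mitochondrial peptides, were at 173 and 184 CPM and at 305 and 282 CPM. Macrophages had at most 23.0 CPM of either. C5ar1, the receptor for complement C5a, was at 680 and 798 CPM against 248 and 231 CPM. Ccr1, a receptor for CC chemokines, was at 1256 and 1363 CPM against 256 and 212 CPM. The higher genes therefore ranged from Cxcr4, with a log2 fold change of 1.01 (SE 0.30, edgeR adjusted p = 0.00561), to Hcar2.

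The lower receptors were C3ar1 and Cmklr1. C3ar1, the receptor for complement C3a, had no UMI in any neutrophil and 267 and 293 CPM in macrophages, so it was at least 23.6-fold lower. Cmklr1, the chemerin receptor, had 1 UMI and a log2 fold change of -3.69 (SE 1.04, edgeR adjusted p = 0.00312). The complement receptors C5ar1 and C3ar1 thus lay on opposite sides of macrophages.

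Adhesion genes were higher in 5 of 11 cases and lower in none, with a median log2 fold change of 1.44. Cd44, a hyaluronan receptor, was at 1745 and 2013 CPM, Selplg, the ligand of P-selectin, at 582 and 638 CPM, and Itgal, an integrin chain, at 207 and 245 CPM, and each was higher. Itga4 passed narrowly (0.80, SE 0.31, edgeR adjusted p = 0.0428). Itgam and Itgb2, the chains of the integrin Mac-1, did not pass. With DESeq2's size factors 8 of the 11 passed.

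Cytokine genes gave 5 higher and 4 lower of 16 tested, with a median log2 fold change of 0.36, or 0.56 with a gene at 0 set at its bound. Il1b was at 6889 CPM in the pooled library (6504 to 7291) and 8199.8 CPM in replicate 3 (7590 to 8846), against 1478 and 1143 CPM in macrophages. It was found in 38 of 40 and all 19 neutrophils. The log2 fold change was 2.32 (SE 0.40, edgeR adjusted p = 2.20e-07), and it lost the call with DESeq2 (adjusted p = 0.211) and without the library block (edgeR adjusted p = 0.0635). Csf1, the macrophage growth factor, was at 599 and 835 CPM against 3.95 and 6.49 CPM. Its log2 fold change was 6.92 (SE 0.32, edgeR adjusted p = 1.94e-101), and 34 of the 59 cells held it. Il1rap, the shared chain of interleukin-1 receptors, was at 317 and 233 CPM against 11.8 and 12.0 CPM.

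Tnfsf14, a cytokine of the TNF family, was the remaining higher gene beside Il1f9 (1.90, SE 0.56, edgeR adjusted p = 0.00451). The lower genes were Il10, an anti-inflammatory cytokine, Il18, Tgfb1 and Vegfa, the vascular growth factor. Il10 had 1 UMI in neutrophils and 97.2 and 152 CPM in macrophages. Tnf was at 363 and 1056 CPM against 367 and 385 CPM and did not pass. In replicate 3 a single cell gave 49 of its 86 UMIs, and without that cell the level was 474 CPM.

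Chemokine genes were divided, with 4 higher and 9 lower of 16. Cxcl2, a ligand of Cxcr2, was at 9452 and 10495 CPM against 4072 and 4196 CPM. It passed with a log2 fold change of 1.08 (SE 0.41, edgeR adjusted p = 0.0394), and lost the call when the calprotectin minimum was 0.5% or 2% (edgeR adjusted p = 0.0778 and 0.123) and among cells at or above 5% ribosomal UMIs (edgeR adjusted p = 0.985). Single cells differed, since counts ran from 0 to 227 UMIs in the pooled library and to 300 in replicate 3. In replicate 3 the highest cell gave 35.1% of all Cxcl2 UMIs, and without it the level was 7110 CPM. Cxcl3 (2.31, SE 0.32), Ccl3 (0.86, SE 0.29) and Ccl6 (0.71, SE 0.26) were the other higher genes, with edgeR adjusted p-values of 1.32e-11, 0.0149 and 0.0328. Not all of these calls held. With DESeq2, 2 chemokine genes were higher. With the calprotectin minimum at 0.5%, and among cells at or above 5% ribosomal UMIs, 1 was.

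The lower chemokines included several that attract monocytes and lymphocytes. Cxcl16 had no UMI in 59 neutrophils and 542 and 428 CPM in macrophages, so it was at least 42.0-fold lower. Ccl8 had 1 UMI against 1991 and 1792 CPM, a log2 fold change of -9.04 (SE 0.69, edgeR adjusted p = 2.56e-36). Cxcl10 and Ccl5 had no UMI and, over both libraries, were at least 6.49-fold and 5.50-fold lower. In replicate 3 the macrophage levels, 31.4 and 13.5 CPM, lay under the 36.8 CPM that 0 neutrophil UMIs allow, so a difference was not detectable in that library. Ccl5 lost its call without the library block and among cells at or above 5% ribosomal UMIs, and Cxcl10 with the calprotectin minimum at 0.5%. Ccl2, a ligand for monocytes, was at 46.1 and 12.3 CPM against 675 and 717 CPM. Ccl7, Ccl9, Pf4 and Cxcl1 completed the 9. The list median was -4.85, or -2.46 with genes at 0 set at their bound.

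**Figure D3:**
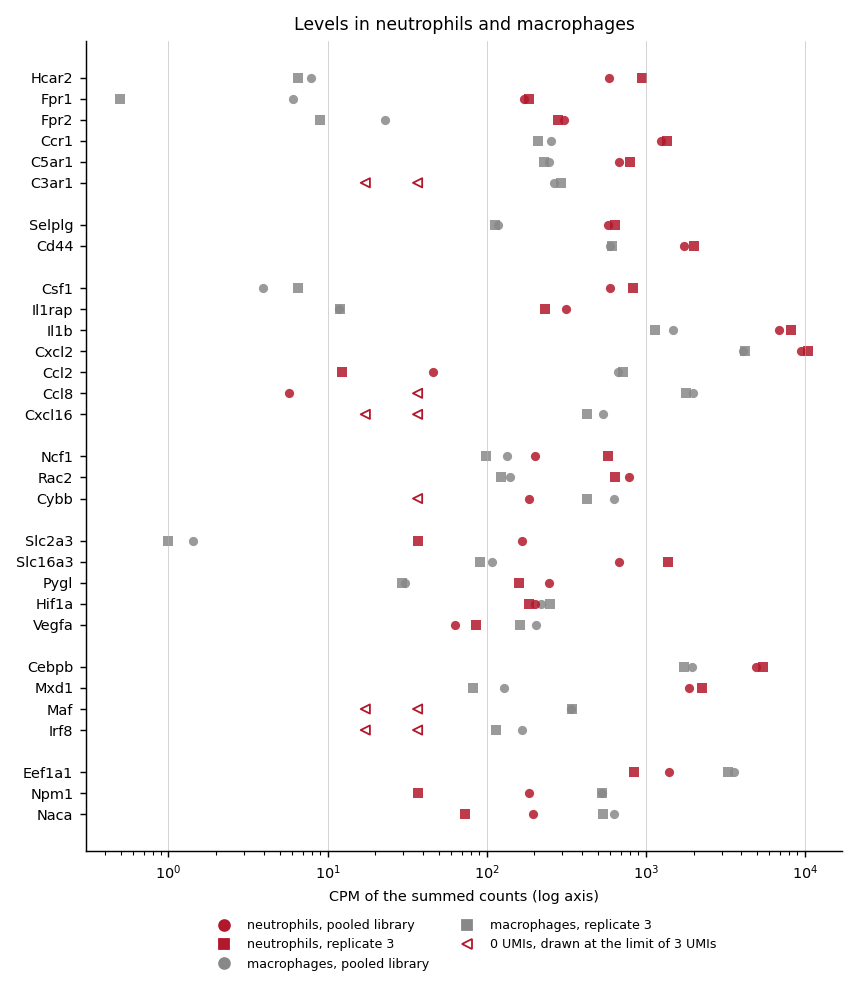
Points give CPM on a log axis for genes of the named lists in neutrophils (red) and macrophages (grey), with circles for the pooled library and squares for replicate 3, and open triangles where a class had 0 UMIs, drawn at the level of 3 UMIs. Hcar2, Fpr1 and Csf1 separate the classes upward, and C3ar1, Ccl8, Cxcl16, Maf and Irf8 downward.

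Receptors for microbial patterns and antibodies gave 4 higher and 3 lower of 15, with a median log2 fold change of 0.42. Nlrp3, the inflammasome sensor that leads to release of interleukin-1β, was at 858 and 1129 CPM against 242 and 267 CPM. Its log2 fold change was 1.74 (SE 0.25, edgeR adjusted p = 3.22e-10), and it missed the threshold with DESeq2 (adjusted p = 0.0526). Tlr4, the receptor for endotoxin, was at 115 and 147 CPM against 21.2 and 26.4 CPM. Cd14 and Tlr13 were also higher. Fcgr2b, the inhibitory receptor for IgG, had 2 UMIs against 703 and 698 CPM, a log2 fold change of -6.62 (SE 0.57, edgeR adjusted p = 6.13e-29). Fcgr1 had 1 UMI against 140 and 91.3 CPM. Clec4a2 was the remaining lower gene, and Fcgr3 and Fcer1g did not pass.

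Interferon-response genes gave 6 higher and 1 lower of 19, beside 7.08 and 17.1% of all genes. Their median was 0.46, or 0.49 with genes at 0 set at their bound. Ifitm1, a membrane protein that restricts viral entry, was at 8018 and 4456 CPM against 169 and 109 CPM, a log2 fold change of 5.38 (SE 0.45, edgeR adjusted p = 8.02e-31). The Schlafen genes Slfn4 and Slfn1 were at 357 and 393 CPM and at 288 and 196 CPM, against at most 18.3 CPM in macrophages. Ifitm2, Isg15 and Oasl2 were the other higher genes. Ifit2, the lower gene, had no UMI and was at least 1.53-fold lower, but it lost the call in 10 other settings, and with DESeq2's size factors or DESeq2 no gene of the list was lower. Irf7, Rsad2 and Ifit1 did not pass.

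Transcription factors of myeloid cells gave 4 higher and 5 lower of 14, with a median of 0.11. Mxd1, an antagonist of Myc that marks late granulocytes, was at 1860.5 and 2271 CPM against 128 and 82.3 CPM. Cebpb, Cebpd and Klf2 were higher too. Maf and Irf8 had no UMI and were at least 29.2-fold and 12.3-fold lower. Cebpa, used earlier in granulocyte development, had 1 UMI, and Gfi1, a factor of granulocyte precursors, had none. Klf4 was lower as well.

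Genes of survival and death mostly did not pass, with 2 higher and 1 lower of 18, beside 7.08 and 17.1% of all genes. Their median was -0.17, or 0.05 with a gene at 0 set at its bound. Bcl2l11, which encodes the pro-apoptotic protein Bim, was at 323 and 491 CPM against 133 and 115 CPM, a log2 fold change of 1.46 (SE 0.26, edgeR adjusted p = 4.98e-07). Fas, a death receptor, was at 132 and 135 CPM against 24.4 and 27.4 CPM. Casp8, a caspase that acts below Fas, was at 11.5 and 24.6 CPM against 87.2 and 83.8 CPM and was lower (-2.57, SE 0.62, edgeR adjusted p = 4.06e-04). Mcl1, on which neutrophil survival depends, was at 2246 and 3081 CPM against 1325 and 1212 CPM and did not pass (edgeR adjusted p = 0.0715). With DESeq2's size factors 7 genes were higher.

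Hif1a itself was at 202 CPM (140 to 280) in pooled neutrophils and 184 CPM (103 to 304) in those of replicate 3, with UMIs in 21 of 40 and 8 of 19 cells. Macrophages had 221 and 251 CPM and T cells 228 and 320 CPM. Neither difference passed (edgeR adjusted p = 0.398 and 0.325). Thinned to 500 UMIs, 1 of 40 and 0 of 19 neutrophils had a Hif1a UMI, with Wilson intervals up to 12.9 and 16.8%. Among thinned macrophages 14.8 and 12.0% had one, and among thinned T cells 11.4 and 22.0%. Of 24 tested genes of the HIF-1 pathway, 3 were higher and 4 lower than in macrophages, beside 7.08 and 17.1% of all genes. The list median was 0.07, or 0.18 with genes at 0 set at their bound. Vegfa was at 63.4 and 85.9 CPM against 204 and 161 CPM, a log2 fold change of -1.55 (SE 0.38, edgeR adjusted p = 4.93e-04), which did not pass with DESeq2 (adjusted p = 0.0822). Ndrg1, Higd1a and Egln2, a prolyl hydroxylase that marks HIF-1α for removal, were lower as well. Egln2 rested on 3 UMIs and lost the call in 6 other settings.

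The higher genes of the pathway were Egln3, Ankrd37 and Bnip3l. Egln3, another prolyl hydroxylase, and Ankrd37 had UMIs only in the pooled library, in 5 cells each. Plod2 and P4ha2, collagen-modifying enzymes, had no neutrophil UMI.

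Neutrophils rely on glycolysis. Of 22 tested genes of glycolysis and glycogen, 4 were higher and 1 lower, beside 7.08 and 17.1% of all genes. Their median was 0.12, or 0.17 with a gene at 0 set at its bound. Slc2a3, a high-affinity glucose transporter, was at 167 and 36.8 CPM against 1.43 and 0.998 CPM, a log2 fold change of 6.42 (SE 0.65, edgeR adjusted p = 6.73e-21). It was held by 17 of 40 and 3 of 19 cells. Slc16a3, which exports lactate, was at 679.7 and 1387 CPM against 108 and 90.3 CPM, and its log2 fold change was 3.10 (SE 0.24, edgeR adjusted p = 2.70e-34). Pygl, which breaks down glycogen, was at 248 and 160 CPM against 30.8 and 29.4 CPM. Pfkfb4 passed narrowly (edgeR adjusted p = 0.0458) and lost the call in 7 other settings. Tpi1 was the lower gene. Slc2a1, Hk2, Gapdh, Eno1 and Ldha did not pass.

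Genes of lipid mediators gave 2 higher and 2 lower of 9, with a median of 0.02, or 0.17 with genes at 0 set at their bound. Ptgs2, the inducible cyclooxygenase, was at 657 and 1043 CPM against 358 and 208 CPM, and Alox5ap, which feeds 5-lipoxygenase, at 1382 and 1007 CPM against 611 and 476 CPM. Neither kept its call with DESeq2 (adjusted p = 0.175 and 0.428). Ltc4s, which makes leukotriene C4, had no UMI and was at least 2.52-fold lower, and it lost its call with DESeq2 and among cells at or above 5% ribosomal UMIs. Tbxas1, thromboxane synthase, had 1 UMI.

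Genes that remodel matrix gave 4 higher and 10 lower of 21, with a median of -2.13, or -1.29 with genes at 0 set at their bound. Mmp8, Mmp9, Adam8 and Tgm2 were the higher genes. Mmp14 and Mmp19 had 1 UMI each against at least 156 CPM in macrophages, and Ctsk, a collagen-degrading cathepsin, had 1 UMI against 385 and 147 CPM. Mmp12, the macrophage elastase, had none and was at least 2.87-fold lower, and it lost its call without the library block and among cells at or above 5% ribosomal UMIs. Thbs1, which encodes thrombospondin-1, was at 1037 and 3265 CPM against 1427 and 1431 CPM and did not pass, and it was held by 19 of 40 and 12 of 19 cells with up to 59 UMIs in a cell. Spp1, osteopontin, was at 311 and 184 CPM against 523 and 483 CPM and was lower (-1.15, SE 0.34, edgeR adjusted p = 0.00516).

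Immediate early and stress genes, which digestion of tissue can induce, gave 2 higher and 8 lower of 16, with a median of -0.88. Fos was at 628 and 786 CPM against 2540 and 2204 CPM, a log2 fold change of -1.96 (SE 0.40, edgeR adjusted p = 2.02e-05). Fosb was lower as well. Hspa1a and Hspa1b, inducible heat shock proteins, had 4 UMIs and 1 UMI in neutrophils. Nfkbia, the inhibitor of NF-κB, and Btg2 were the higher genes. A part of digestion in these levels was not tested.

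The machinery of translation was lower as a group. Of 20 translation factors and related genes, 15 were lower and none higher, beside 17.1% of all genes, with a median log2 fold change of -1.53. Eef1a1, an elongation factor, was at 1400 and 847 CPM against 3619 and 3312 CPM. Eif3e was lowest (-3.16, SE 0.56, edgeR adjusted p = 3.94e-07), and Npm1 and Naca, a ribosome biogenesis factor and a nascent chain chaperone, were at -2.26 and -2.16. Of 86 ribosomal protein genes, 76 were lower and none higher, with a median of -1.71. Of 85 nuclear genes of the respiratory chain, 52 were lower and none higher, with a median of -1.46. Ndufc2, a subunit of complex I, was at 11.5 and 0 CPM against 233 and 202 CPM, and Uqcrb, a subunit of complex III, at 28.8 and 24.6 CPM against 249 and 247 CPM.

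With DESeq2's size factors, 13 translation genes, 75 ribosomal protein genes and 43 respiratory chain genes were lower, beside 1273 of all 10705 genes. With every class limited to cells at or above 5% ribosomal UMIs, the counts were 0 of 20, 15 and 6. In that setting only 378 of all 10531 genes tested were lower. This setting left 13 neutrophils, and it selects cells on the ribosomal genes themselves.

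Genes of cell division had no UMI in neutrophils in 14 of 20 cases. Mki67 and Top2a, markers of dividing cells, were at least 3.60-fold and 1.83-fold lower than in macrophages, which is all that this depth allows. Against T cells they were at least 14.9-fold and 12.0-fold lower. Of the 20 genes, 8 were lower and 1 higher than in macrophages, beside 17.1 and 7.08% of all genes. Their median was -7.65, or -1.41 with genes at 0 set at their bound. With DESeq2's size factors, with DESeq2 and with the calprotectin minimum at 0.5%, 4 genes were lower. Top2a lost its call in 6 other settings, and its macrophage level in the pooled library, 8.97 CPM, lay under the 17.3 CPM that 0 UMIs allow. The higher gene was Hmgb2, a chromatin protein, at 674 and 466 CPM against 221 and 238 CPM.

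The 10 genes with the largest shares of neutrophil UMIs outside the rule included 5 that did not pass against macrophages. Gm42418, which overlaps a ribosomal RNA repeat, took 7.58 and 8.42% of UMIs and its difference from macrophages did not pass (edgeR adjusted p = 0.938). Fth1, ferritin heavy chain, Malat1, a nuclear RNA, and Tmsb4x and Actb, which encode cytoskeletal proteins, did not pass either. Srgn, the granule proteoglycan serglycin, was at 0.963 and 1.08% of UMIs against 0.113 and 0.0889%, a log2 fold change of 3.14 (SE 0.44, edgeR adjusted p = 2.79e-11). S100a11, another S100 protein, was at 0.752 and 0.755% against 0.0799 and 0.0861%. Tyrobp, the adaptor of Trem1, was at 0.658 and 0.743% against 0.231 and 0.185% and lost the call with DESeq2 (adjusted p = 0.19).

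T cells gave a reference farther from the myeloid line. Of 10705 genes, 9.39% were higher and 15.2% lower in neutrophils than in T cells, and both contrasts share the neutrophil libraries. All 22 tested neutrophil markers were higher, as were 13 of 15 pattern and Fc receptors, 11 of 16 cytokines and 12 of 21 matrix genes. Against T cells, translation genes were lower in 16 of 20 cases and cell division genes in 19 of 20. Ccl5, the chemokine of T cells, was at least 204-fold lower. Rac2 and Itgal, higher than in macrophages, did not pass against T cells (edgeR adjusted p = 0.496 and 0.957). Slc2a3 was higher than in T cells by 1.31 (SE 0.45, edgeR adjusted p = 0.0194), but in replicate 3 alone the difference was -0.69.

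Splitting the neutrophils at 5% ribosomal UMIs left 30 and 10 cells in the pooled library and 16 and 3 in replicate 3, too few for a test. The genes of the rule are left out here, since they chose the cells and their UMIs enter the total behind the ribosomal share. At or above the line in the pooled library, the 3 cells with UMIs of other classes gave 54.9% of the 52947 UMIs, so values without them are given as well, a choice made after seeing the data. Thbs1 was at 1218 CPM under the line and 623 CPM at or above it in the pooled library, or 713 CPM without those cells, and at 3732 against 715 CPM in replicate 3. Ifitm1 was at 8826 against 6176 CPM in the pooled library, but at 12869 CPM at or above the line without those cells, which reversed the order, and at 5009 against 1429 CPM in replicate 3. Il1b was at 7724 against 4986 CPM, or 5407 CPM without those cells, and at 8102 against 8735 CPM in replicate 3, so its order differed between libraries. All 32 Cybb UMIs lay at or above the line, 31 of them in 1 of those cells. For Thbs1, 1 cell under the line gave 59 of the 180 pooled UMIs, and 1 gave 59 of the 266 of replicate 3. The Thbs1 levels under the line therefore rest in part on single cells, and were not computed without them.

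The calprotectin share, which chose the cells, is set beside granule genes as a description. Spearman's rho between the share of S100a8 and S100a9 and that of 11 secondary granule genes was 0.426 over 40 cells and 0.858 over 19 cells. The cells are not replicates, they share a library and depth, and the shares are parts of the same total. With chemokine genes rho was -0.294 and -0.205. Secondary granule genes reached 1% of UMIs in 1 cell, which had 9411 UMIs, 28.7% calprotectin, 24 Ngp and 269 Retnlg UMIs. Its chemokine share was 0.0638%. Only 3 cells lay between 0.5 and 1.5%, all of the pooled library. Chemokine genes ran from 0 to 8.37% of UMIs in the pooled library with a median of 0.919%, and from 0.0959 to 10.6% in replicate 3 with a median of 0.691%.

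The tissue sections were used to ask whether the same genes occur together in intact tissue. A Visium spot is a small region that can hold several cells. Spots of at least 100 UMIs with keratin under 0.5% were split by Csf3r, Cxcr2, Il1r2 and Retnlg, and 9 of 1495 such spots in A1 and 63 of 1324 in B1 had at least 2 UMIs of these receptors. In those spots S100a8 and S100a9, which did not choose them, took 1.39% of UMIs in A1 (1.19 to 1.63%) and 1.51% in B1 (1.43 to 1.60%). In all, 5 of the 9 spots in A1 and 50 of the 63 in B1 held any of these UMIs, so the intervals do not cover the spread between spots. With spots of at least 1 receptor UMI the shares were 0.276 and 0.986%. In the other spots they took 0.0259% (0.0229 to 0.0294%) and 0.117% (0.110 to 0.125%). The intervals cover counting error only. Receptor-positive spots were deeper, with medians of 1327 and 1177 UMIs against 506 and 509, and a part of depth in their choice was not tested. With keratin-rich spots included, the shares were 0.636 and 1.14% against 0.0290 and 0.0914%. Keratin-rich spots held 55.0 and 36.6% of all S100a8 and S100a9 UMIs, and keratinocytes also make these proteins.

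Other neutrophil markers, summed, were higher in the same spots. Without Slpi, which was left out, the 20 markers outside the rule that had probes took 2.75 and 1.86% of UMIs. In the other spots they took 0.120 and 0.222%. Il1b, the largest of these 20, was at 12815 and 8201 CPM against 156 and 631 CPM. Hdc was at 1534 and 1137 CPM against 21.9 and 114 CPM. Some markers did not follow. In A1, Mmp9 was at 361 against 479 CPM, and Il1f9, Ly6g, Cd177 and Nlrp12 had no UMI in the receptor-positive spots. In B1, Cd177 was at 12.8 against 16.1 CPM. Chemokine genes took 0.713 and 0.703% against 0.0666 and 0.130%. Thbs1 was at 24366 and 18012 CPM against 701 and 1887 CPM. Spp1 was at 6137 and 10948 CPM against 124 and 900 CPM, while in dissociated neutrophils it was below macrophages. Slc2a3 was at 1805 and 2721 CPM against 40.6 and 183 CPM. Macrophage markers took 0.0993 and 0.0945% of UMIs against 0.294 and 0.198%, and mesenchymal markers 1.39 and 0.631% against 4.10 and 3.45%.

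Secondary granule genes were at 0.0180 against 0.0187% of UMIs in A1 and at 0.0511 against 0.0278% in B1. Many receptor-positive spots had another beside them. In B1, 48 of 63 (76.2%) touched another such spot, and in A1 5 of 9 did, while 7.93 and 0.996% of the other spots touched one. Neighbouring spots are not independent, and no test was made over spots.

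**Figure D4:**
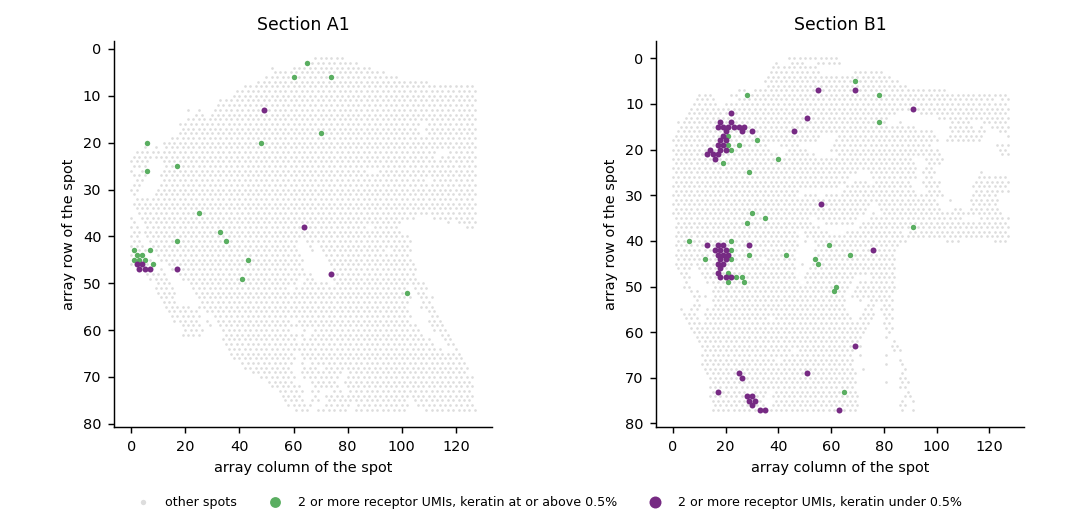
Maps of both sections by array column and row, with each spot as a point, receptor-positive spots under 0.5% keratin in purple and those at or above it in green. Purple spots number 9 in A1 and 63 in B1, where 48 of the 63 touch another.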

How the data were processed

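The deposited scRNA-seq values were UMI counts per gene and barcode, made by the authors with Cell Ranger 5.0.1 on mm10 from Single Cell 3' v3 libraries, with barcodes already called as cells. The deposited Visium values were probe UMI counts per spot, made by the authors with Space Ranger 2.0.1 on mm10 from FFPE tissue and limited to spots over tissue. Image scale factors and the authors' Moran's I per gene were not used. The matrices held no columns of other samples.

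There were 2303 barcodes and 31536402 UMIs in the pooled library and 1266 and 23379476 in replicate 3. Filters on genes removed 806 and 305 barcodes and the mitochondrial limit 82 and 83 more. Macrophages were kept barcodes with at least 5 UMIs of Adgre1, C1qa, C1qb, C1qc, Csf1r, Mrc1 and Ms4a7 (230 and 133 cells). T cells had at least 2 UMIs of Cd3d, Cd3e and Cd3g (114 and 41), and mesenchymal cells had at least 2% of UMIs from Col1a1, Col1a2 and Col3a1 (385 and 300). None was a neutrophil, and all had keratin under 0.5%. Macrophages and T cells had these collagens under 0.5%. Macrophages and mesenchymal cells had no Cd3 UMI, and T cells and mesenchymal cells had under 5 macrophage UMIs. Apart from keratin, neutrophils had no limit on UMIs of other classes. Doublets were called with Scrublet in scanpy 1.11.5 at an expected rate of 0.02 and were not removed. For each class, the counts of a library were added up, and these sums were tested with edgeR 4.0.16 in R 4.3.3 (quasi-likelihood, TMM, filterByExpr, Benjamini-Hochberg, threshold 0.05). All 4 classes shared an estimate of the spread. The library was a block, since classes of a library come from the same digest. Neutrophil sums were 173608 and 81465 UMIs, so 3 UMIs, the limit that a count of 0 allows, equal 17.3 and 36.8 CPM and 11.8 CPM over both. Genes with no neutrophil UMI were given as bounds against that limit. Genes with no macrophage UMI were bounded likewise by 3 macrophage UMIs. The bounds leave out the counting error of the class that had UMIs. The fit was tested on simulated counts first. Alternatives included DESeq2 1.42.0, its size factors in edgeR, other limits of the rule, and no block. Genes that defined a class were given no test. Promoters came from RefSeq.

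The members and gene lists were chosen with earlier results of these data known. Named genes were up to 4 per list with the largest fold change among those past the threshold and changed alike in both libraries, the 10 largest shares of UMIs, the genes of the rule and Hif1a. Some genes that this rule names are not reported here.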

Additional observations from a re-analysis of the deposited data

How the results depend on the processing

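Every neutrophil result rests on 59 shallow cells from 2 libraries, so low genes are limited by depth, and the balance of higher and lower genes depends on the scaling. Against macrophages, genes higher in neutrophils numbered 758 and genes lower 1830. With classes limited to cells at or above 5% ribosomal UMIs they numbered 191 and 378, and against T cells 399 and 442 in place of 1005 and 1627. With the calprotectin minimum at 0.5%, lower genes numbered 847 against macrophages and 979 against T cells, and this setting added 2 barcodes, of 66944 UMIs with 8.35% collagen and of 17972 UMIs with 0.957%. With DESeq2, lower genes numbered 919 and 998. The share of calls that were higher against macrophages was 29.3% and became 42.6% with DESeq2's size factors in edgeR, 51.5% with DESeq2, 55.6% with the 0.5% minimum, 39.0% without the genes of the class rules and 38.5% with a mitochondrial limit of 10%. Of 88 named genes tested against macrophages, 33 lost the call among cells at or above 5% ribosomal UMIs, 22 with DESeq2, 15 with the 0.5% minimum, 10 without the block and 6 with DESeq2's size factors. In other settings the cause was not tested.

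Without the replicate block, 692 genes were higher and 1697 lower against macrophages, and 938 and 1484 against T cells. A single library left no residual degrees of freedom, so only directions of the log2 ratio of TMM-scaled CPM were counted. Of the higher genes, 719 to 756 kept their direction against macrophages and 974 to 1004 against T cells, and of the lower genes 1828 to 1830 and 1622 to 1626 did. The share of neutrophils under 5% ribosomal UMIs was 75.0% and 84.2% in single libraries.

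Some log2 fold changes changed sign. With the 0.5% minimum, Higd1a against macrophages was 0.40 and Mmp14 against T cells 4.41. Against T cells, Cybb was -6.60 among members under 5% ribosomal UMIs. In the pooled library alone and in replicate 3 alone, against T cells, Cybb was 5.71 and -2.69, Hspa1a -3.90 and 1.43, and Slc2a3 1.91 and -0.69. Selplg against T cells was -0.37 among cells at or above 5% ribosomal UMIs. The settings on members under 5% ribosomal UMIs and on members without UMIs of other classes were chosen after seeing the data.

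In the sections, S100a8 and S100a9 took 0.276% of UMIs in A1 and 0.986% in B1 with at least 1 receptor UMI per spot, and 1.94 and 1.76% with at least 3. The other spots of B1 were at 0.0993 and 0.138%. A secondary granule limit of 0.5% held 3 neutrophils and one of 2% held 0. Thinned to 1000 UMIs, Cxcr2 was in 55.3% and Il1b in 94.7% of pooled neutrophils, and Il1b in 100% of those of replicate 3.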
